A study of Homo sapiens with 9 samples.

Results

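The genes described here are the human matrix metalloproteinases (MMPs), the ADAMTS proteases and the tissue inhibitors of metalloproteinases (TIMPs). They were chosen by name alone, as every symbol formed from MMP, ADAMTS or TIMP and a number, with an A or B ending allowed for MMPs. Of the 62700 genes in the count table, 47 were members: 24 MMP genes, 19 ADAMTS genes and 4 TIMP genes. The question put to them was which matrix proteases rose with each of the CIC fusions, since some of these proteases are known targets of ETV4 and its relatives.

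The cells were 293T, a single established human embryonic kidney line that takes up plasmid readily, and all were transiently transfected. A group received either empty vector, a plasmid for HA-CIC::DUX4, or one for HA-CIC(ex20)::NUTM1(ex6), written CIC::NUTM1 below. Each group had 3 libraries of polyA-selected RNA, from transfections of 300000 cells made on separate days, with RNA taken about 48 h afterwards. Expression from the plasmids was not analysed here, and the group labels therefore have no check from it.

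MMPs are zinc-dependent proteases that cut collagens, laminins and other matrix proteins. Most are secreted as inactive precursors, whereas the membrane-type enzymes are held at the cell surface. ADAMTS proteases carry a related catalytic domain joined to thrombospondin repeats that bind matrix, and their known substrates include the large proteoglycans, procollagens and von Willebrand factor. TIMPs bind the active site of these enzymes and block it. CIC is a DNA-binding repressor, known to silence the PEA3 factors ETV1, ETV4 and ETV5, and PEA3 factors and AP-1 are known regulators of several MMP promoters.

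Libraries held 16970771 to 33655445 counts. Levels are given as CPM, a gene's counts divided by its library's total and multiplied by a fixed factor, with the totals first rescaled by TMM (trimmed mean of M values). A count of 3 in a library corresponded to 0.0891 to 0.177 CPM, taken as the floor for counting error only. The abundance filter kept 17576 genes. It kept 32 of the 47 members: 11 MMPs, 17 ADAMTS genes and 4 TIMPs. The 293T markers (8 genes, among them PAX2, LHX1 and NEFM) were all tested, with summed levels of 785 to 973 CPM with empty vector, 566 to 693 with CIC::NUTM1 and 636 to 670 with CIC::DUX4. NEFM made up most of that sum, with means of 567 (empty vector), 347 (CIC::NUTM1) and 360 CPM (CIC::DUX4). With CIC::DUX4, EYA1 and KRT8 were called higher and NEFL and NEFM lower. With CIC::NUTM1, DESeq2 called 2 of the 8 higher and 3 lower. The summed fibroblast markers (6 genes) lay at 34.8 to 38.7, 33.4 to 37.7 and 38.4 to 42.3 CPM in the same order, with COL1A2 at 0 in the empty vector libraries. COL1A1 made up most of that sum, with means of 33.5, 26.3 and 29.9 CPM, and was called lower with CIC::NUTM1, while LUM was called higher with each fusion and DCN with CIC::NUTM1. CIC::DUX4 replicate 1 alone held 203 reads of THY1, a gene with at most 2 reads in any other library. That library also held 64 reads of COL1A2, against at most 7 in any other library. It had 180 reads of the endothelial marker KDR, against 25 and 23 in the other CIC::DUX4 libraries. Leukocyte markers (5 genes) summed to 1.20 to 3.37, 4.04 to 5.94 and 2.01 to 2.56 CPM, with CD3E at 0 in empty vector and CIC::NUTM1; PTPRC was called higher with each fusion and CD14 with CIC::NUTM1. Endothelial markers (4 genes) summed to 0.481 to 0.908, 3.52 to 6.36 and 1.53 to 7.67 CPM, and KDR was called higher with CIC::NUTM1. The part of these markers in the results was not tested. Among them, DCN, PTPRC and CD14 passed the abundance filter through fusion libraries alone. ETV4 itself was at 0.401, 0.527 and 0.601 CPM with empty vector, at 255, 156 and 211 CPM with CIC::NUTM1 and at 232, 165 and 182 CPM with CIC::DUX4.

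With CIC::DUX4, ADAMTS18, ADAMTS6, MMP16, MMP17 and TIMP4 rose and ADAMTS5 fell against empty vector. That is 5 higher and 1 lower among the 32 tested members. A call means an adjusted p under 0.05 in edgeR's quasi-likelihood test with Benjamini-Hochberg adjustment over all 17576 genes. Over those genes, 6.96% were called higher and 1.27% lower. The members called higher made up 15.6% of the tested members. The median log2 fold change of the tested members was 0.07, beside -0.0015 over all genes tested. In 8 members all CIC::DUX4 libraries lay above all empty vector libraries, and in 1 all lay below, against 14.8% and 11% of all genes.

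With CIC::NUTM1, ADAMTS18, ADAMTS6, MMP10, MMP13, MMP16 and MMP17 rose and ADAMTS5 fell. That is 6 higher and 1 lower among the 32 tested members by the edgeR test, where 11.5% of all genes were called higher and 3.83% lower. The 6 members were 18.8% of those tested. The median log2 fold change of the tested members was 0.14, beside -0.00086 over all genes. In 10 members the groups' libraries were separate with CIC::NUTM1 above, and in 2 with CIC::NUTM1 below, against 18.2% and 12.9% of all genes. MMP10, MMP13, TIMP4 and ADAMTS14 were tested only because fusion libraries carried them past the abundance filter. MMP23B, MMP24 and ADAMTS4 reached the filter's level in only 1 or 2 of the empty vector libraries. The shares and medians over tested members are therefore descriptions. Both comparisons used the same 3 empty vector libraries, so their values are set side by side below and are not independent of each other. In bulk RNA, fewer cells that took up the plasmid and less RNA per cell cannot be told apart.

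Set directly against CIC::DUX4, CIC::NUTM1 had higher ADAMTS18 and ADAMTS1. These 2 of 32 members compare with 4.97% of all genes called higher, and 0 members were called lower, against 1.64% of all genes. DESeq2 and limma-trend also called 0 members lower, and 3 members were lower at an unadjusted p under 0.05 in the edgeR test. In 4 members all CIC::NUTM1 libraries lay above all CIC::DUX4 libraries and in 3 all lay below, against 12.6% and 9.36% of all genes.

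**Figure D1:**
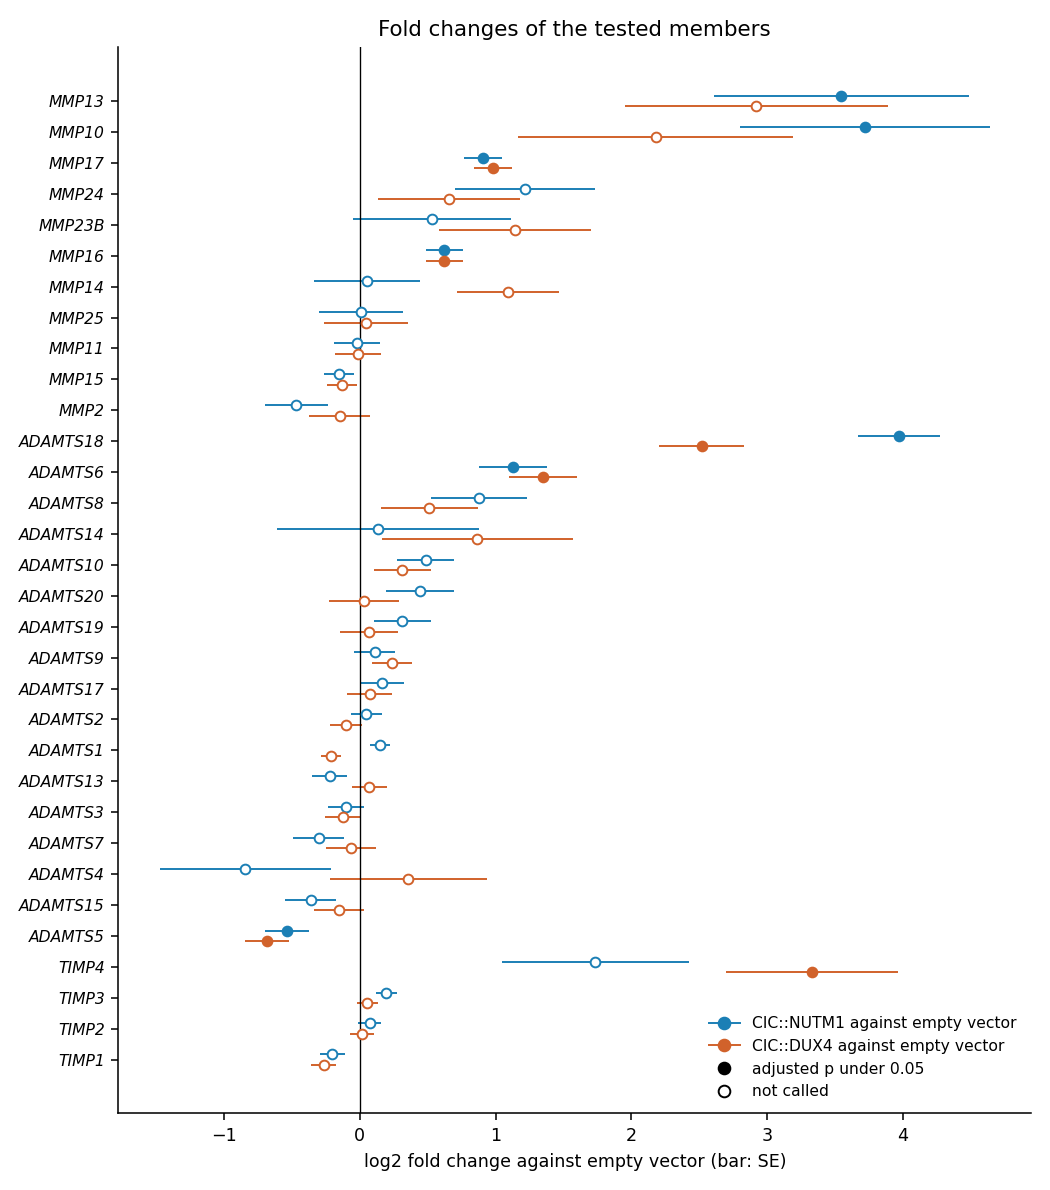
Log2 fold change against empty vector (horizontal axis) of the 32 tested members with CIC::NUTM1 and with CIC::DUX4; bars are 1 SE and filled points passed an adjusted p under 0.05. ADAMTS18 has the highest fitted change with CIC::NUTM1, 3.97, and ADAMTS5 is the only filled member below 0 in either comparison.

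ADAMTS18 was called in all 3 comparisons. It encodes a secreted protease whose closest relative in the family is ADAMTS16. In the GENCODE 29 annotation of GRCh38 the gene (ENSG00000140873) lies on the minus strand at chr16:77247813-77435114. Its level was 0.515, 0.615 and 0.801 CPM in the empty vector libraries. It was 10.98, 6.66 and 13.4 CPM with CIC::NUTM1, and 4.39, 3.78 and 3.00 CPM with CIC::DUX4. The 3 groups do not overlap: every CIC::NUTM1 library lay above every CIC::DUX4 library, and those above every empty vector library. The log2 fold change was 3.97 ± 0.30 (SE) with CIC::NUTM1 (adjusted p = 4.57e-10, edgeR) and 2.52 ± 0.31 with CIC::DUX4 (adjusted p = 2.13e-06). The mean level with CIC::NUTM1 was 2.78 times that with CIC::DUX4, a log2 difference of 1.46 ± 0.25 (adjusted p = 0.000339, edgeR). The CIC::NUTM1 library with the lowest ADAMTS18, replicate 2, was also the lowest of its group for ETV4, and the part of that library in the spread was not tested. ADAMTS16 was not tested for want of reads. An opposite-strand gene, AC009139.1, shares 136 exon bases with ADAMTS18 and was itself called higher with each fusion (adjusted p = 0.00702 with CIC::NUTM1 and 0.00698 with CIC::DUX4, edgeR). It had 3, 0 and 2 reads with empty vector, 25, 8 and 14 with CIC::NUTM1 and 38, 11 and 12 with CIC::DUX4, and was not called between the fusions. AC009139.1 passed the abundance filter through fusion libraries alone. ADAMTS18 had 9, 21 and 20, then 183, 174 and 259, then 115, 79 and 51 reads. Whether the counting used strand is not given in the sources used here, and the part of this overlap in the ADAMTS18 reads was not tested.

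ADAMTS6 rose with each fusion and did not differ detectably between them. It encodes a protease that, like its close relative ADAMTS10, is known to act on fibrillin microfibrils. The gene (ENSG00000049192) lies on the minus strand at chr5:65148736-65481920. Levels were 1.89, 2.99 and 2.32 CPM with empty vector, 3.54, 6.62 and 5.70 CPM with CIC::NUTM1, and 6.79, 5.80 and 6.06 CPM with CIC::DUX4. All fusion libraries lay above all empty vector libraries, and the fusions' libraries overlapped each other. The log2 fold change was 1.35 ± 0.25 (SE) with CIC::DUX4 (adjusted p = 0.000475, edgeR) and 1.13 ± 0.25 with CIC::NUTM1 (adjusted p = 0.00206). Between the fusions the log2 difference was -0.22, with a 95% confidence interval of -0.71 to 0.27. ADAMTS10 was at 4.17 to 8.59 CPM over all libraries and was not called in any comparison. Leaving out empty vector replicate 1 gave ADAMTS10 an adjusted p of 0.0306 with CIC::NUTM1, against 0.131 with all libraries.

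The promoters of these 2 genes are shown because they are the ADAMTS genes called higher and their windows can be read for the letters that CIC and PEA3 factors are known to bind. Each run is the RefSeq window of GRCh38.p14 from 250 bases before to 50 bases after the annotated start, written on the gene's strand. ADAMTS18 is chr16:77434985-77435284 and ADAMTS6 is chr5:65481871-65482170, both on the minus strand. The motifs named after them were searched on both strands, and matches are in capitals.
ADAMTS18: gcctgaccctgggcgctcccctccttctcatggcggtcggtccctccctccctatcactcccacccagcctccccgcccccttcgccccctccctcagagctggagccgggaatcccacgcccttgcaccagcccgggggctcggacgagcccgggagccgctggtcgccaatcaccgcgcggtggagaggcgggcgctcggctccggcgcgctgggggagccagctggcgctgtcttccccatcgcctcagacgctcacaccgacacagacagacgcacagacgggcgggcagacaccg
ADAMTS6: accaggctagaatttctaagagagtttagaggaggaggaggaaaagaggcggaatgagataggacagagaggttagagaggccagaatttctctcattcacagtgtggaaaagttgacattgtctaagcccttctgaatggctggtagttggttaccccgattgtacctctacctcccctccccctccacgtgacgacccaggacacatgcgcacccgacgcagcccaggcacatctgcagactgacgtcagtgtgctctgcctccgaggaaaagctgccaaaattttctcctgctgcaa
Neither window holds a match. The CIC octamers (TGAATGAA, TGAATGGA, TCAATGAA, TCAATGGA) stood in 3.77% of 35116 RefSeq promoter windows of the same length and in 0 of the 28 windows that 27 members had. The ETS core AGGAAG stood in 33.6% of all windows and in 6 of the 28, those of ADAMTS10, ADAMTS12, ADAMTS13, MMP7, TIMP1 and TIMP4. The AP-1 motif TGANTCA stood in 7.71% of all windows and in 4 of the 28, those of ADAMTS12, MMP10, MMP20 and MMP7. A missing match says only that these letters are not in this window. No window was available for the called members MMP13, MMP16, MMP17, ADAMTS5 and ADAMTS1, so their promoters were not searched.

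ADAMTS5 fell with each fusion. It encodes an aggrecanase, a protease that cuts the cartilage proteoglycan aggrecan and also versican. The gene (ENSG00000154736) lies on the minus strand at chr21:26917912-26966513. Levels were 12.5, 12.03 and 10.6 CPM with empty vector, 8.58, 8.80 and 6.79 CPM with CIC::NUTM1, and 7.48, 7.38 and 6.94 CPM with CIC::DUX4. Every fusion library lay below every empty vector library. The log2 fold change was -0.69 ± 0.16 (SE) with CIC::DUX4 (adjusted p = 0.00592, edgeR) and -0.54 ± 0.16 with CIC::NUTM1 (adjusted p = 0.023). The log2 difference between the fusions was 0.15, with a 95% confidence interval of -0.19 to 0.49. The call with CIC::NUTM1 was lost without empty vector replicate 1 (adjusted p = 0.0867), without empty vector replicate 2 (0.0779) and without CIC::NUTM1 replicate 3 (0.104).

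ADAMTS1 is a neighbour of ADAMTS5 on the same strand, at chr21:26835747-26845409 (ENSG00000154734), and also cuts versican and aggrecan. It was the most abundant protease of the set, at 209, 197 and 182 CPM with empty vector. With CIC::NUTM1 it stood at 236, 212 and 203 CPM, and with CIC::DUX4 at 171, 182 and 152 CPM. The fusions' libraries do not overlap, while those of CIC::NUTM1 overlap the empty vector libraries and CIC::DUX4 replicate 2 reaches the lowest of them. Between the fusions the mean levels stood in a ratio of 1.29, a log2 difference of 0.36 ± 0.07 (SE; adjusted p = 0.00219, edgeR). Against empty vector, neither change was called: 0.15 with CIC::NUTM1 (adjusted p = 0.201, edgeR) and -0.21 with CIC::DUX4 (adjusted p = 0.077). The value with CIC::DUX4 was called without CIC::DUX4 replicate 2 (adjusted p = 0.0401), with no abundance filter (0.0156), in a fit of those groups alone (0.0309) and with the replicate number as a block (0.0312).

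Of the 7 ADAMTS genes known to cut large proteoglycans (ADAMTS1, ADAMTS4, ADAMTS5, ADAMTS8, ADAMTS9, ADAMTS15 and ADAMTS20), ADAMTS5 alone was called against empty vector, and ADAMTS1 alone between the fusions. Over all genes, 1.27% were called lower with CIC::DUX4, 3.83% lower with CIC::NUTM1 and 4.97% higher between the fusions. This grouping, too, was made after the values were seen. In the edgeR test ADAMTS8 came nearest to a call upwards with CIC::NUTM1, at 1.74, 2.14 and 3.06 CPM beside 1.09, 1.52 and 1.12 CPM (adjusted p = 0.101). ADAMTS4 ranged over 0.155 to 1.26 CPM, ADAMTS9 over 9.27 to 14.4, ADAMTS15 over 6.68 to 12.02 and ADAMTS20 over 2.72 to 6.24 across the 9 libraries. The procollagen N-proteinases, which trim the ends of fibrillar procollagens, were not called in any comparison: ADAMTS2 ranged over 19.5 to 25.1 CPM, ADAMTS3 over 14.3 to 18.3 and ADAMTS14 over 0.0765 to 0.765. ADAMTS13, which cuts von Willebrand factor, ranged over 13.6 to 21.8 CPM. The remaining tested ADAMTS genes were ADAMTS7 at 5.28 to 7.70 CPM, ADAMTS17 at 9.12 to 14.8 and ADAMTS19 at 5.35 to 10.6, none of them called in any of the 3 comparisons.

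**Figure D2:**
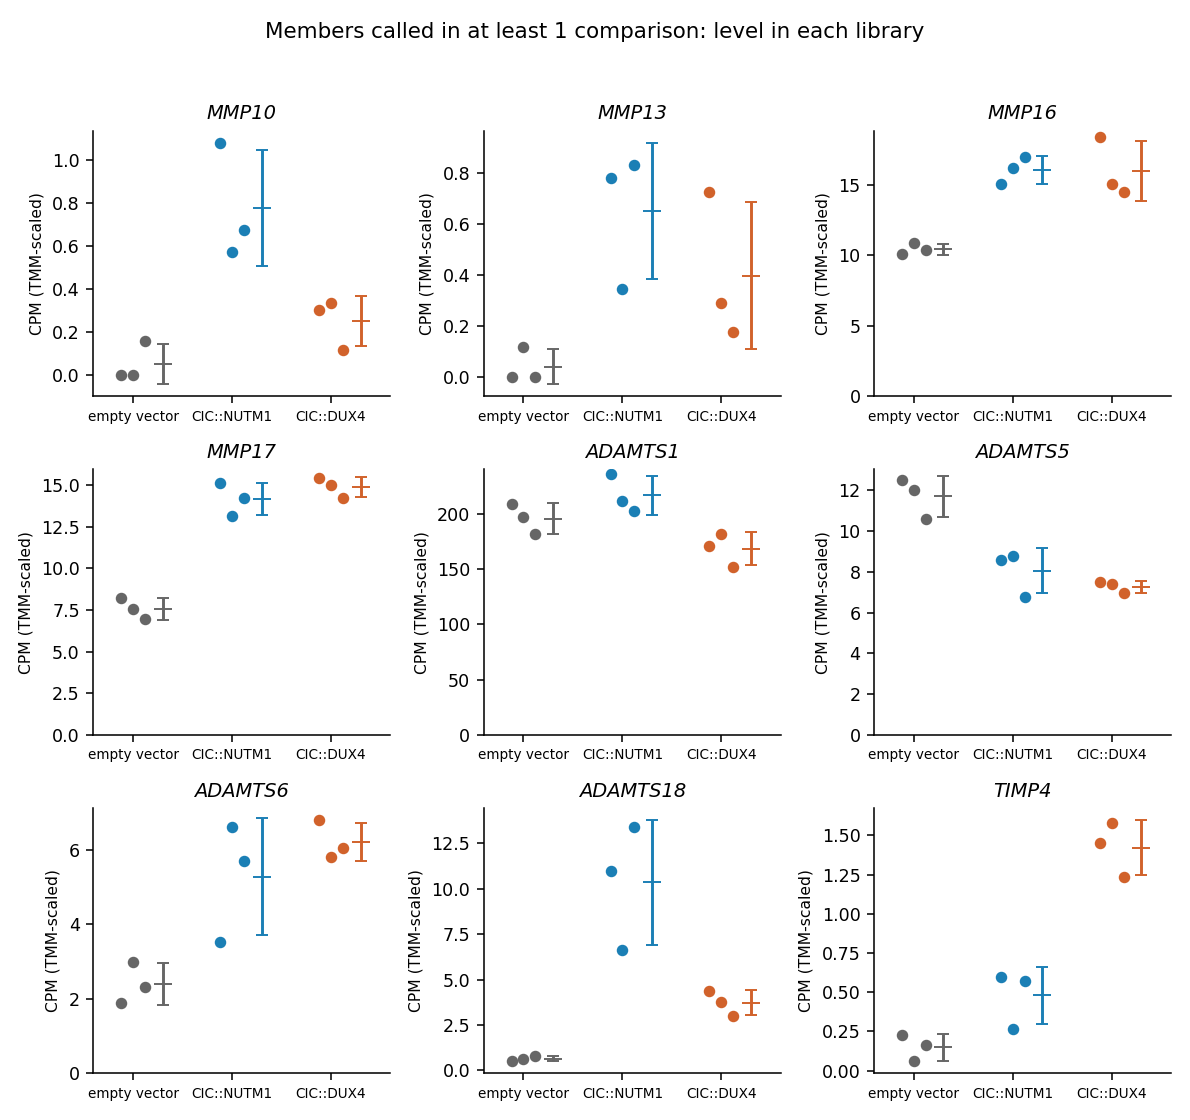
Level in TMM-scaled CPM (vertical axes, each from 0) of the 9 members called in at least 1 comparison, with a point for each library, a line at each group's mean and a bar of 1 SD. ADAMTS18 falls into 3 separate groups, ADAMTS5 is lower with each fusion, and MMP10, MMP13 and TIMP4 stay near or below 1.58 CPM in every library.

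Among the 6 membrane-type MMPs, MMP16 and MMP17 rose with each fusion, where 6.96% (CIC::DUX4) and 11.5% (CIC::NUTM1) of all genes were called higher. MMP14, MMP15, MMP24 and MMP25 were not called in any comparison. This grouping was made after the values were seen. MMP17 is held by a lipid (GPI) anchor, as MMP25 is, whereas the others span the membrane. The MMP17 gene (ENSG00000198598) lies on the plus strand at chr12:131828393-131851783. Its levels were 8.24, 7.55 and 6.93 CPM with empty vector, 15.1, 13.2 and 14.2 CPM with CIC::NUTM1, and 15.4, 15.0 and 14.2 CPM with CIC::DUX4. The fusion libraries all lay well above the empty vector libraries and overlapped each other. The log2 fold change was 0.98 ± 0.14 (SE) with CIC::DUX4 (adjusted p = 1.91e-05, edgeR) and 0.91 ± 0.14 with CIC::NUTM1 (adjusted p = 3.49e-05). Between the fusions the difference was -0.08, with a 95% confidence interval of -0.36 to 0.21 on the log2 scale.

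MMP16 (ENSG00000156103), a membrane-type enzyme known to activate the gelatinase MMP2, was at 10.1, 10.9 and 10.4 CPM with empty vector. It was at 15.1, 16.2 and 16.99 CPM with CIC::NUTM1 and at 18.5, 15.1 and 14.5 CPM with CIC::DUX4. Every fusion library lay above every empty vector library, and the 2 fusions gave the same fitted change, 0.62 ± 0.14 (SE) on the log2 scale (adjusted p = 0.00176 with CIC::NUTM1 and 0.00294 with CIC::DUX4, edgeR). The difference between them was 0.00, with a 95% confidence interval of -0.27 to 0.28. Without CIC::DUX4 replicate 1, the highest library, the CIC::DUX4 value was 0.50 with an adjusted p of 0.05, at the threshold and not called. An opposite-strand gene, AC090578.1, shares 118 exon bases with MMP16.

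MMP14, the best known activator of MMP2, was at 1.83, 1.67 and 0.882 CPM with empty vector, 1.38, 1.38 and 1.76 CPM with CIC::NUTM1, and 5.04, 2.20 and 1.94 CPM with CIC::DUX4. The CIC::DUX4 libraries all lay above the others, replicate 1 by far, and the log2 change of 1.09 ± 0.37 (SE) was not called (adjusted p = 0.0777, edgeR). Replicate 1 is also the library that held the THY1 reads, and its part in the MMP14 change was not tested. The MMP14 change was called without CIC::DUX4 replicate 3 (adjusted p = 0.0331, edgeR). MMP24 ranged over 0.229 to 2.52 CPM and had a log2 change of 1.22 ± 0.51 (SE) with CIC::NUTM1 (adjusted p = 0.122, edgeR). That value was called without empty vector replicate 2 (adjusted p = 0.0365) and without CIC::NUTM1 replicate 2 (0.0446), and an antisense gene, MMP24OS, shares 799 exon bases with MMP24. MMP15 ranged over 21.6 to 29.4 CPM, MMP25 over 1.71 to 3.36, and the gelatinase MMP2 over 3.24 to 6.17. MMP11, a secreted stromelysin-type enzyme, kept to 6.66 to 7.52 CPM in all 9 libraries. CHCHD10, on the opposite strand, shares 218 exon bases with MMP11 and was called lower with each fusion. MMP25-AS1, also on the opposite strand, shares 1454 exon bases with MMP25. The part of these overlaps in the reads was not tested. MMP23B ranged over 0.321 to 1.30 CPM, was not called, and is uncertain because MMP23A is a nearly identical copy.

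The secreted MMPs that were called lie in the MMP gene cluster of chromosome 11, where the levels were near the floor. This cluster holds 9 members on the minus strand of chr11:102520508-102955734, a span of 435227 bases: MMP7, MMP20, MMP27, MMP8, MMP10, MMP1, MMP3, MMP12 and MMP13 in order of position. MMP10 and MMP13 alone had enough reads to be tested. MMP10 (ENSG00000166670, chr11:102770503-102780628) is a stromelysin that cuts non-collagen matrix proteins and activates collagenase precursors. It had 0, 0 and 4 reads with empty vector, 18, 15 and 13 with CIC::NUTM1, and 8, 7 and 2 with CIC::DUX4. In CPM these were 0, 0 and 0.16, then 1.08, 0.574 and 0.673, then 0.305, 0.335 and 0.118. All CIC::NUTM1 libraries lay above all other libraries, while CIC::DUX4 and empty vector overlapped. The fitted log2 change was 3.72 ± 0.92 (SE) with CIC::NUTM1 (adjusted p = 0.0056, edgeR) and 2.18 ± 1.01 with CIC::DUX4 (adjusted p = 0.234). These values rest on 4 reads in 1 empty vector library. Only CIC::NUTM1 libraries reached the level the abundance filter asks for, 0.486 CPM, so MMP10 could be tested only because it was high there. The call was lost without empty vector replicate 2 (adjusted p = 0.0547). The difference between the fusions was 1.54, with a 95% confidence interval of -0.01 to 3.09.

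The MMP10 promoter window, chr11:102780579-102780878 on the minus strand, is shown for its single AP-1 match. TGAATCA, in capitals, stands at positions -67 to -61 from the RefSeq start.
MMP10: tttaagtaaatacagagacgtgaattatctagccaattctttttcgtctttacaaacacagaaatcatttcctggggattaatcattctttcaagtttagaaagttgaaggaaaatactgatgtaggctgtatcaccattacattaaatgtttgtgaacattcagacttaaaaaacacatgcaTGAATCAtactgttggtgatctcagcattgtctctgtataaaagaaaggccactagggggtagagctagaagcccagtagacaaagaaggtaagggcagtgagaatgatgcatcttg
No CIC octamer or AGGAAG stands in it.

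MMP13 (ENSG00000137745, chr11:102942995-102955734) is a collagenase known from cartilage and bone. It had 0, 4 and 0 reads with empty vector, 13, 9 and 16 with CIC::NUTM1, and 19, 6 and 3 with CIC::DUX4. In CPM these were 0, 0.117 and 0, then 0.78, 0.344 and 0.829, then 0.725, 0.287 and 0.176. All fusion libraries lay above all empty vector libraries. The fitted log2 change was 3.55 ± 0.94 (SE) with CIC::NUTM1 (adjusted p = 0.00985, edgeR) and 2.92 ± 0.97 with CIC::DUX4, not called (adjusted p = 0.0651). The call with CIC::NUTM1 was lost without empty vector replicate 1 (adjusted p = 0.0539), empty vector replicate 3 (0.0644) or CIC::NUTM1 replicate 3 (0.0505). Without empty vector replicate 2 the CIC::DUX4 value was called (adjusted p = 0.0332). The difference between the fusions, 0.63, had a 95% confidence interval of -0.87 to 2.13, so that these depths do not separate them. MMP13 reached 0.486 CPM in 2 CIC::NUTM1 libraries and 1 CIC::DUX4 library, and was thus tested only through fusion libraries. A fit of CIC::NUTM1 and empty vector alone left MMP13 untested.

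**Figure D3:**
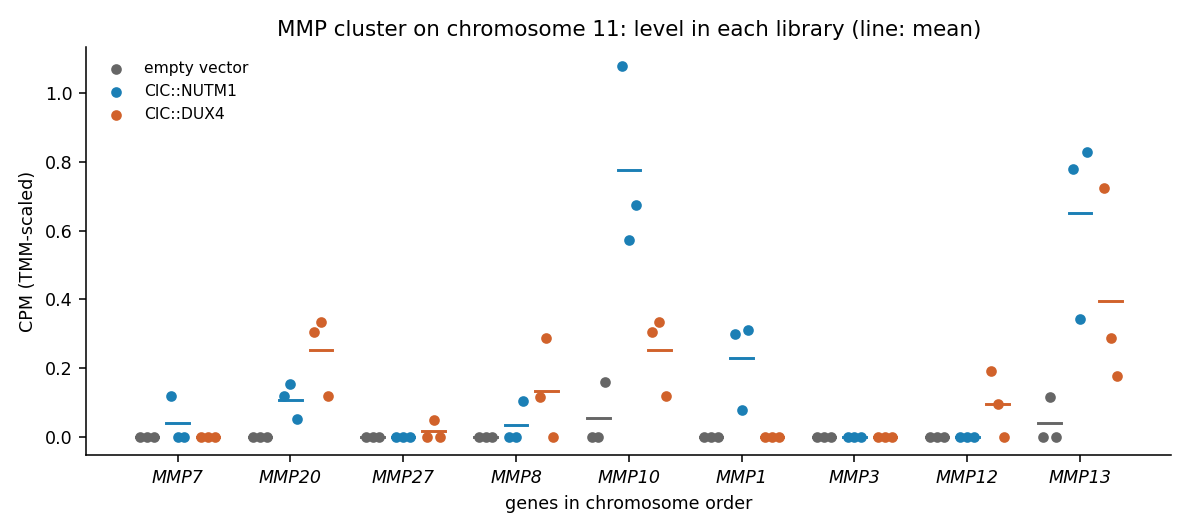
Level in TMM-scaled CPM (vertical axis) in each of the 9 libraries for the 9 MMP genes of the chromosome 11 cluster, in order of position. The 3 empty vector libraries have reads for MMP10 and MMP13 alone, and no library has reads for MMP3.

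Over the whole cluster, reads numbered 0, 4 and 4 in the empty vector libraries, 40, 30 and 38 with CIC::NUTM1, and 43, 29 and 7 with CIC::DUX4. The summed levels were 0.0925 ± 0.0829, 1.84 ± 0.636 and 1.15 ± 0.649 CPM (SD, n = 3 each). CIC::DUX4 replicate 3, the shallowest library of the series, also had the fewest cluster reads among the fusion libraries. Scaled for depth it was still the lowest of them, at 0.412 CPM beside 1.64 and 1.39 in the other CIC::DUX4 libraries. CIC::NUTM1 replicate 1, with 17123926 counts, had 40 cluster reads. The part of depth in these reads was not tested. The collagenase MMP1 had 5, 2 and 6 reads with CIC::NUTM1 and 0 in each of the other 6 libraries. The enamel protease MMP20 had 2, 4 and 1 reads with CIC::NUTM1, 8, 7 and 2 with CIC::DUX4 and 0 with empty vector. MMP8, the neutrophil collagenase, had 0, 0 and 2 reads and then 3, 6 and 0, and MMP12, the macrophage elastase, had reads with CIC::DUX4 alone, 5, 2 and 0. MMP7, a small protease that lacks the hemopexin domain, had 2 reads in 1 CIC::NUTM1 library, MMP27 had 1 read in 1 CIC::DUX4 library, and MMP3 had 0 reads in every library. These counts are given without a test, and the WTAPP1 gene shares 150 exon bases with MMP1.

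The 15 untested members were ADAMTS12, ADAMTS16, MMP1, MMP3, MMP7, MMP8, MMP9, MMP12, MMP19, MMP20, MMP21, MMP23A, MMP26, MMP27 and MMP28. Their highest count in any library was 21, for ADAMTS12, and MMP3 and MMP26 had no read in any library. The gelatinase MMP9, often described as a target of PEA3 factors, had 3, 14 and 1 reads with empty vector, 12, 4 and 8 with CIC::NUTM1 and 5, 6 and 2 with CIC::DUX4, in overlapping ranges. SLC12A5-AS1, on the opposite strand, shares 430 exon bases with MMP9 and was called higher with CIC::DUX4 (adjusted p = 0.0123, edgeR). MMP28 had 8, 1 and 1 reads with CIC::DUX4 and 0 elsewhere. Pooled over the 15 genes, levels were 0.896 ± 0.432 CPM with empty vector, 2.09 ± 0.623 with CIC::NUTM1 and 2.25 ± 0.600 with CIC::DUX4 (SD, n = 3 each). The ratios to empty vector, 2.33 and 2.51, stand beside 1.5 and 1.53 for all 17189 genes that had reads and were not tested.

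TIMP4 was the one inhibitor called in any comparison. It encodes the TIMP known for its narrow expression in heart and brain, and the gene (ENSG00000157150) lies on the minus strand at chr3:12153051-12159351, inside the synapsin gene SYN2. It had 4, 2 and 4 reads with empty vector, 10, 7 and 11 with CIC::NUTM1, and 38, 33 and 21 with CIC::DUX4. In CPM these were 0.229, 0.0586 and 0.16, then 0.6, 0.268 and 0.57, then 1.45, 1.58 and 1.24. The 3 groups do not overlap, with CIC::DUX4 the highest and empty vector the lowest. The log2 fold change was 3.33 ± 0.64 (SE) with CIC::DUX4 (adjusted p = 0.000725, edgeR), a 9.53-fold ratio of mean levels. With CIC::NUTM1 it was 1.73 ± 0.69 (adjusted p = 0.0946, edgeR), not called. The difference between the fusions, -1.60 with a 95% confidence interval of -2.74 to -0.45, was not called either after adjustment over all genes (adjusted p = 0.0939, edgeR). As with MMP10 and MMP13, TIMP4 passed the abundance filter through fusion libraries alone. SYN2, on the opposite strand, shares 170 exon bases with TIMP4. SYN2 was at 9.14 ± 0.479 CPM with empty vector, 9.05 ± 2.89 with CIC::NUTM1 and 7.43 ± 0.736 with CIC::DUX4 (SD, n = 3 each), and was not called.

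The TIMP4 window, chr3:12158863-12159162 on the minus strand, is shown because it alone among the windows of these 4 genes (ADAMTS18, ADAMTS6, MMP10 and TIMP4) holds the ETS core. AGGAAG, in capitals, stands at positions -76 to -71 from the RefSeq start, letters that 33.6% of all windows hold.
TIMP4: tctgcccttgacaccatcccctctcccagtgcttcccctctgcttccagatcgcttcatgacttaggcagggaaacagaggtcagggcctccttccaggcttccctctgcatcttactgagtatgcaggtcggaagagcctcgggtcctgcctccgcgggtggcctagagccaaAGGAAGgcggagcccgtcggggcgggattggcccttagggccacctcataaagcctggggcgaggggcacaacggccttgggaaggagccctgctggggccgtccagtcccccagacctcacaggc
No CIC octamer and no AP-1 motif stands in it.

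The other 3 inhibitors were abundant and were not called. TIMP1, a secreted inhibitor of most MMPs, was at 48.8, 43.3 and 51.6 CPM with empty vector, 41.0, 41.4 and 42.1 CPM with CIC::NUTM1, and 37.4, 38.5 and 43.7 CPM with CIC::DUX4. CIC::NUTM1 libraries all lay below the empty vector libraries, and CIC::DUX4 replicate 3 overlapped them. The log2 changes were -0.20 (adjusted p = 0.144, edgeR) and -0.27 (adjusted p = 0.078) in that order. The change with CIC::DUX4 was called without empty vector replicate 2 (adjusted p = 0.0406), without CIC::DUX4 replicate 3 (0.0329) and with no abundance filter (0.049). TIMP2, which also takes part in the activation of MMP2 by MMP14, was at 39.4, 43.9 and 45.8 CPM, then 45.7, 45.4 and 44.8, then 40.9, 45.6 and 44.6. Its groups overlapped, with log2 changes of 0.07 with CIC::NUTM1 and 0.02 with CIC::DUX4. TIMP3, the inhibitor that binds to matrix and blocks several ADAMTS proteases, was at 50.2, 54.7 and 55.3 CPM, then 63.5, 58.4 and 61.8, then 57.0, 56.1 and 53.5. The CIC::NUTM1 libraries lay above the others, and the log2 change of 0.20 was not called (adjusted p = 0.104, edgeR).

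**Figure D4:**
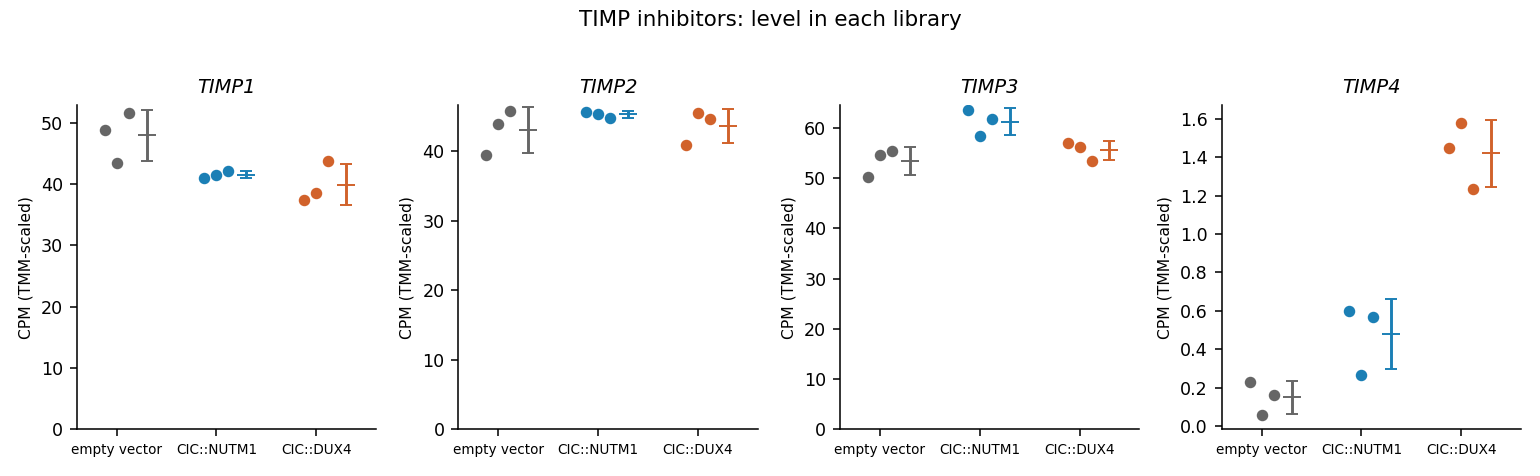
Level in TMM-scaled CPM (vertical axes, each from 0) of TIMP1 to TIMP4 in each library, with group means and bars of 1 SD. TIMP4 is the one panel with separate groups for all conditions, at a level far below the other inhibitors.

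To compare levels between genes, CPM were divided by exon length in kilobases (RPKM, over the merged exons of GENCODE 29). With empty vector the set was led by TIMP1 at 31.1 RPKM and ADAMTS1 at 27.8, followed by TIMP3 at 11.6, TIMP2 at 7.64 and MMP15 at 6.03. The same 5 genes led with each fusion. ADAMTS18 stood at 0.0964 RPKM with empty vector, rank 27 of the 32 tested members, at 1.55 RPKM and rank 10 with CIC::NUTM1, and at 0.558 RPKM and rank 24 with CIC::DUX4. MMP17 moved from 1.89 RPKM and rank 9 to 3.54 and 3.72 RPKM, rank 6 with each fusion. TIMP4 reached 0.862 RPKM and rank 19 with CIC::DUX4, from 0.0905 RPKM and rank 28. Summed over each family's members, MMP genes gave 12.8 ± 0.457 RPKM with empty vector, 15.3 ± 0.946 with CIC::NUTM1 and 15.9 ± 0.703 with CIC::DUX4 (SD, n = 3 each). The ADAMTS sums were 46.2 ± 1.66, 50.8 ± 2.81 and 43.1 ± 1.90 RPKM, and the TIMP sums 50.4 ± 3.01, 48.6 ± 0.685 and 46.5 ± 1.95 RPKM. The MMP sums of both fusions lay above every empty vector library, as did the ADAMTS sums of CIC::NUTM1. Single genes weigh heavily in these sums. ADAMTS1, not called against empty vector, stood at 27.8 RPKM with empty vector, 30.7 with CIC::NUTM1 and 23.9 with CIC::DUX4. MMP17 stood at 1.89, 3.54 and 3.72 RPKM in the same order. The sums therefore do not describe a change of every family member. The ADAMTS sums of CIC::DUX4 overlapped those of empty vector, and the TIMP sums overlapped between groups.

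**Figure D5:**
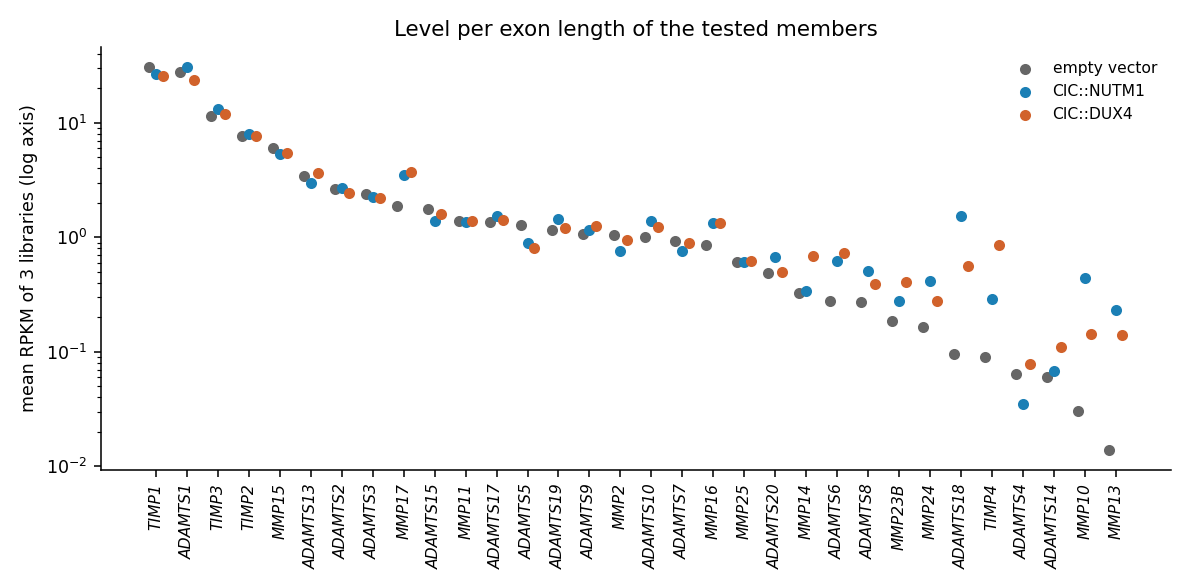
Mean level of the 32 tested members in RPKM on a log axis, 1 point for each group. TIMP1, ADAMTS1, TIMP3, TIMP2 and MMP15 lead in every group, and the called members other than ADAMTS1 stand below 4 RPKM.

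Around the members, counts of called genes were taken for lists of known substrates, partners and other proteases. Of 9 tested substrates and matrix proteoglycans, 3 were higher with CIC::DUX4 (6.96% of all genes were) and 4 higher and 1 lower with CIC::NUTM1 (11.5% and 3.83% of all genes) by edgeR. Versican, VCAN, which ADAMTS1 and ADAMTS5 cut, was at 89.9 ± 7.58 CPM with empty vector, 205 ± 34.6 with CIC::NUTM1 and 256 ± 36.6 with CIC::DUX4 (SD, n = 3 each). FBN1, the microfibril protein fibrillin, was at 15.2, 65.1 and 33.6 CPM in the same order of group means, and the difference between the fusions was called (adjusted p = 0.000239, edgeR). HAPLN1, a link protein that joins proteoglycans to hyaluronan, was listed at 0 in all empty vector libraries and rose with each fusion, to at most 1.08 CPM. RELN rose with CIC::NUTM1, to 2.28, 2.37 and 2.54 CPM, and HAPLN3 fell there. HAPLN1 and RELN reached the 0.486 CPM of the abundance filter in fusion libraries alone. Their part in the counts of this list is therefore a description. Of 6 tested ADAMTS-like genes, which encode ADAMTS relatives without a protease domain, ADAMTSL1 and THSD4 rose with each fusion. ADAMTSL1 had mean levels of 0.496 (empty vector), 7.73 (CIC::NUTM1) and 7.74 CPM (CIC::DUX4), and THSD4 of 4.83, 14.0 and 12.3 CPM.

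Among 15 tested regulators and activators of pericellular proteases, 4 were higher with CIC::DUX4 (PCOLCE2, PCSK5, SPOCK1 and SPOCK2) and 5 with CIC::NUTM1 (BSG, PCSK5, SPOCK1, SPOCK2 and TFPI2). For these and the lists that follow, 6.96% of all genes tested were called higher for CIC::DUX4 and 11.5% for CIC::NUTM1, so a single called gene in a short list does not stand apart. PCSK5, a proprotein convertase, had means of 17.02 CPM with empty vector, 31.8 with CIC::NUTM1 and 26.5 with CIC::DUX4. RECK, a membrane-bound MMP inhibitor, was not called against empty vector but was called between the fusions, at 13.5 CPM (CIC::NUTM1) against 9.26 (CIC::DUX4) (adjusted p = 0.0269, edgeR). Of 10 tested membrane ADAMs, ADAM12 was higher with CIC::DUX4, with means of 1.95 against 0.411 CPM, and 0 were called with CIC::NUTM1 by edgeR or DESeq2, where 1 had an unadjusted p under 0.05. Of 4 tested astacins, MEP1A and TLL2 rose with CIC::NUTM1, and with CIC::DUX4 edgeR and DESeq2 called 0 and 0 had an unadjusted p under 0.05. MEP1A passed the abundance filter through fusion libraries alone. Of 8 tested cathepsins and serine proteases, DPP4 was higher with each fusion, at 4.69, 8.13 and 12.5 CPM (means with empty vector, CIC::NUTM1 and CIC::DUX4). Of 7 tested genes of the plasminogen system, ANXA2 alone rose with CIC::NUTM1, where DESeq2 and limma-trend each called 1 lower. With CIC::DUX4 edgeR called 0, where 3 had an unadjusted p under 0.05 and DESeq2 and limma-trend each called 1 lower.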

How the data were processed

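PolyA-selected RNA of 9 libraries (3 a group) was analysed. The authors deposited unnormalized counts for Ensembl genes and a table of log2 CPM for 15811 genes. STAR 2.7.10b, R 4.2.2, edgeR 3.40.2 and the build GRCh38 are named without roles in the submitters' processing notes, and the use of strand in counting is not given in the sources used here. Symbols matched 62622 of 62700 IDs. Positions and exon lengths came from GENCODE 29 (GRCh38), and promoter windows from RefSeq.

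The test was edgeR 4.0.16 (R 4.3.3) with filterByExpr, TMM, and a robust quasi-likelihood fit with 1 mean per group over all 9 libraries, adjusted by Benjamini-Hochberg over 17576 genes. The SE is the absolute log2 fold change over the root of the F statistic. The biological coefficient of variation was 10.1%. Per the labels' treatment protocol, replicates of the 1 line were transfected on separate days, so p-values cover the spread between transfections of that line. An exact two-sided permutation test of 3 libraries against 3 cannot go below p = 0.1, so single levels were not tested alone.

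Members called in any comparison and the TIMP genes are given by library, other tested members by their range, and list genes where called. Members, lists and tests were chosen with earlier results of these data known, and the grouping of members by role was made after their values were seen. Alternatives were 3 other scalings, DESeq2 1.42.0, limma-trend (limma 3.58.1) on the deposited log2 CPM, dropping the filter, requiring 10 counts in each library, a fit of the groups compared alone, the replicate number as a block, a minimum log2 change of 1, and each library left out in turn. The edgeR and DESeq2 tests were checked on simulated data for CIC::DUX4 against empty vector. Changes were placed only in genes with a mean above 1 CPM over the libraries. That check therefore does not cover MMP10, MMP13 and TIMP4, whose means were lower. Reads are not independent molecules.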

Additional observations from a re-analysis of the deposited data

How the results depend on the processing

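No member changed direction among called values under any alternative run. The counts of members called higher and lower (5 and 1 for CIC::DUX4, 6 and 1 for CIC::NUTM1, 2 and 0 between the fusions) were the same with DESeq2 size factors, library totals or upper quartile factors, with DESeq2 and with limma-trend. Requiring at least 10 counts in every library left ADAMTS18, TIMP4, MMP10 and MMP13 untested, and those called higher then numbered 3 against empty vector for CIC::DUX4, likewise 3 for CIC::NUTM1, while 1 was called between the fusions. A minimum log2 change of 1 gave 3 higher and 0 lower for CIC::DUX4, 0 lower for CIC::NUTM1 and 1 higher between the fusions. Members called lower with CIC::DUX4 numbered 3 with no filter, 2 in a fit of those groups alone and 2 with the replicate block. The cause was not tested. Members called higher with CIC::NUTM1 numbered 5 in a fit of CIC::NUTM1 and empty vector alone, which left MMP13 untested. With each library left out in turn, members called for CIC::DUX4 numbered 4 to 6 higher and 1 to 2 lower, those for CIC::NUTM1 5 to 7 higher and 0 to 1 lower, and between the fusions 2 higher and 0 lower each time. Of the called members, 5 of 6, 4 of 7 and 2 of 2 in that order were called under every alternative that tested them, the minimum change aside.

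The labels do not say that equal replicate numbers shared a day. For that reason the main fit treated the libraries as unpaired. Deviations from group means of same-numbered libraries correlated between -0.0308 and 0.0753 (9 pairs). Those of differently numbered libraries correlated between -0.108 and 0.0698 (18 pairs). Of 9 libraries, 2 correlated best with their own number in both other groups. The replicate block added ADAMTS1 as lower with CIC::DUX4 and changed no other count of calls. At these depths MMP10, MMP13 and TIMP4 rest on at most 4 reads in each empty vector library, and changes of the 15 untested members were not detectable one by one.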
